A study of Mus musculus with 16 samples.

Results

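Histone chaperones are proteins that bind free histones, keep them from sticking to DNA in the wrong place and hand them over for building nucleosomes. This report follows 10 mouse genes that encode them: Nap1l1, Nap1l4, Set and Npm1, which act mainly on H2A and H2B or on several histones, and Asf1a, Asf1b, Chaf1a, Chaf1b, Hira and Nasp, which act mainly on H3 and H4. The genes were listed by name, and the list was chosen by the genotype differences of Nap1l1, which was lower in knockout discs of both tissues on these arrays, so the genotype values of Nap1l1 are given as a description with no test. Each gene had 1 probe set among the 19505 named genes of the table, and 7 of the 10 were among the 16665 genes tested after a filter on low signal. Asf1a, Chaf1b and Nasp did not pass that filter.

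The samples came from mice in which Sirt6 was deleted in aggrecan-expressing cells of the adult (Acan-CreERT2; Sirt6 fl/fl, called cKO) and from littermates with the floxed alleles but without the Cre (fl/fl). Mice of both genotypes were given tamoxifen as young adults, were male, shared the C57BL/6Jx129SxFVB/NJ background and were 24 months old when the discs were taken. The gelatinous core of the intervertebral disc (nucleus pulposus, NP) and the ring around it (annulus fibrosus, AF) were profiled apart on Clariom S arrays, with 4 arrays each for cKO NP, fl/fl NP, cKO AF and fl/fl AF. Each array carried tissue pooled from the lumbar and caudal discs of a single animal, and the Cre acts only in cells that express aggrecan, so any cells that do not express it kept Sirt6 in the cKO samples.

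SIRT6 removes acetyl groups from histone H3 and so bears on how tightly DNA is packed. In dividing cells the chaperones follow a relay: ASF1 passes new H3 and H4 to CAF-1, of which Chaf1a and Chaf1b encode the large and the middle subunit, and NAP1 proteins add H2A and H2B. Outside replication, ASF1 passes the variant H3.3 to the HIRA complex. Disc cells of an adult rarely divide.

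Values below are the deposited log2 signals, in which a step of 1 is a 2-fold change. A probe set was taken as over background on an array when its signal was 2-fold or more over that array's median of 23 background probe sets, and 15.5% to 17.8% of named genes were over background on an NP array and 17.4% to 22.6% on an AF array. The Sirt6 probe set itself was over background on 0 of 16 arrays. Its signal was 3.69 to 4.54 in cKO NP and 3.74 to 4.21 in fl/fl NP, and 3.39 to 4.89 in cKO AF and 4.49 to 5.13 in fl/fl AF, so it gave no check of the genotype labels at this signal, and the sources do not say whether its probes lie in the deleted part. Markers of nucleus pulposus averaged 5.18 to 7.01 in cKO NP and 5.78 to 6.20 in fl/fl NP, against 4.75 to 5.92 in cKO AF and 5.57 to 6.45 in fl/fl AF, so the tissues overlapped in these deposited values. The arrays were not centred for this, and their medians were 4.41 to 4.49 in NP and 4.933 to 4.998 in AF. Some arrays stood apart: cKO NP arrays 1 and 3 had the highest means of the 6 skeletal muscle markers among the NP arrays (6.23 and 6.08, against 4.81 and 4.37 on cKO NP arrays 2 and 4 and 4.35 to 4.65 in fl/fl NP), and cKO AF array 4 had the highest among the AF arrays (7.18, against 4.87 to 5.66 on the other cKO AF arrays and 4.83 to 5.50 in fl/fl AF). The means of the 7 cartilage matrix markers were also highest on these arrays, at 6.61, 6.92 and 8.48. Single genes weighed on these means. Myh4 was at 10.73 and 9.51 on cKO NP arrays 1 and 3, where 3 of the 6 muscle markers were over background. Mylpf was at 4.76, 4.22, 4.17 and 4.74 on cKO NP arrays 1 to 4, so it did not set arrays 1 and 3 apart. Its probe set was over background on 0 of 8 NP arrays. Cnmd was at 15.73 on cKO AF array 4, while Col9a1 was at 6.37 there, within its fl/fl AF range.

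The promoter of Nap1l1 is shown because the report turns on this gene, and that of Asf1b because ASF1B is the family member tied to dividing cells. The sequences are those of RefSeq on build GRCm38.p6 and run from 250 bases before the annotated start to 50 bases after it, with CCAAT, the element bound by NF-Y, and GGGCGG, the GC box bound by SP1, in capitals on either strand (as ATTGG and CCGCCC on the other strand).
Nap1l1, chr10:111472977-111473276, plus strand: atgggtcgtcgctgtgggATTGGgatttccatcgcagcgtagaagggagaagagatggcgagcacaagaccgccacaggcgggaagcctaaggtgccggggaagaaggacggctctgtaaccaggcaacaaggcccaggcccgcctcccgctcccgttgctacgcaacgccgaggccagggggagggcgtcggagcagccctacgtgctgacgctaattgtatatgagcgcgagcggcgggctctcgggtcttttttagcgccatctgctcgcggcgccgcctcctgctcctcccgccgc
Asf1b, chr8:83955444-83955743, plus strand: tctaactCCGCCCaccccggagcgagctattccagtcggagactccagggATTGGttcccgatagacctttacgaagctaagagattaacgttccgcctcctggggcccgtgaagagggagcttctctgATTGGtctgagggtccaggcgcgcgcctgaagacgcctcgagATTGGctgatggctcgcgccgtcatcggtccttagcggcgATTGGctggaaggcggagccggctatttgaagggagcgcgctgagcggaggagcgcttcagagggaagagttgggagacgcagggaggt
Nap1l1 held CCAAT once, with its first base at position -232, far from the start. Asf1b held it at positions -200, -121, -79 and -39. Of the 8 members with a RefSeq promoter entry (all but Nap1l4 and Npm1), 6 held CCAAT, which 37.9% of 27025 promoters of the same length held, and 6 held GGGCGG, which 35.9% held. The E2F-type motifs TTTGGCGC and TTTCCCGC and the TATA box TATAAA were in none of the 8, and were in 0.537%, 1.11% and 14.2% of all promoters. These matches describe letters in a window, and no array value was tested against them.

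NAP1L1 is a carrier of H2A and H2B that moves between cytoplasm and nucleus. In the NP its log2 signal was 11.33, 7.75, 10.87 and 8.38 on cKO arrays 1 to 4, against 11.33, 10.44, 11.15 and 12.62 on fl/fl arrays 1 to 4. The groups overlapped: cKO arrays 2 and 4 lay below every fl/fl array, and cKO arrays 1 and 3 lay among the fl/fl arrays. The mean was 9.58 ± 1.78 in cKO NP and 11.39 ± 0.91 in fl/fl NP (SD, n = 4 each), a difference of -1.80 (SE 0.74), or 3.49-fold lower. Fewer cells of a type and less RNA per cell cannot be told apart in such bulk tissue.

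In the AF, Nap1l1 was at 6.14, 9.72, 8.003 and 7.57 on cKO arrays 1 to 4, against 10.85, 13.19, 6.98 and 11.25 on fl/fl arrays 1 to 4. Of the fl/fl arrays, 3 lay above every cKO array and array 3 lay near the bottom of the cKO range. The mean was 7.86 ± 1.47 in cKO AF and 10.57 ± 2.60 in fl/fl AF (SD, n = 4 each), a difference of -2.71 (SE 1.07), or 6.54-fold lower. At the study's fold threshold of 1.75, 41 genes (0.246%), Nap1l1 among them, were lower in cKO in both tissues. These are the values for which the gene was picked.

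**Figure D1:**
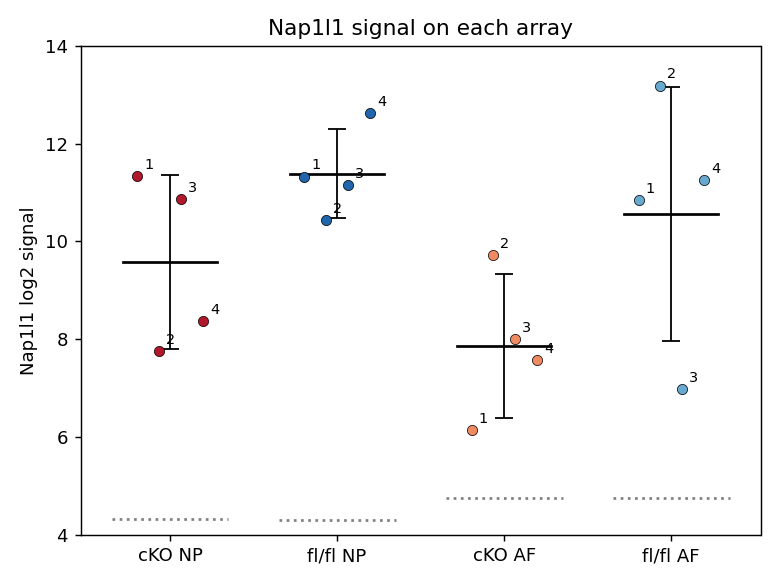
Log2 signal of Nap1l1 (vertical axis) on the 4 arrays of each group (horizontal axis), with array numbers beside the points, bars for the mean, whiskers for ± 1 SD and dotted lines for the background median. All 16 points lie above background, the group means are 9.58 and 11.39 in NP and 7.86 and 10.57 in AF for cKO and fl/fl, and the genotypes overlap in both tissues.

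Nap1l1 was also among the genes that varied most between arrays of a group. Its SD pooled over the genotypes was 1.42 in the NP and 2.11 in the AF, against medians over all genes of 0.43 and 0.56, and only 1.12% of genes in the NP and 0.504% in the AF had a larger one. Arrays of a tissue agreed only in part, with r between arrays from 0.61 to 0.82 in the NP and from 0.37 to 0.72 in the AF. The paper accepted RNA with an integrity number (RIN) above 4 for these arrays. The part of RNA quality in the spread was not tested. Leaving out single arrays gave Nap1l1 differences between -2.39 and -1.19 in the NP and between -3.90 and -1.84 in the AF. The NP value of -1.19 came without cKO array 2. Without cKO NP arrays 1 and 3, which had the highest muscle marker means, the NP difference was -3.32. These were also the cKO NP arrays highest in Nap1l1 (11.33 and 10.87), so leaving them out had to enlarge the difference. Without cKO AF arrays 1 and 4, the lowest and the highest of that group in the ribosomal protein genes described next, the AF difference was -1.71. These were the cKO AF arrays lowest in Nap1l1 (6.14 and 7.57), so leaving them out had to shrink it. Both choices were made after the data were seen.

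The genes whose pattern was most like that of Nap1l1 over the 16 arrays, after subtraction of each tissue's mean, were Rps3a1 (Pearson's r = 0.92), Rpl4 (r = 0.89), Rps7 (r = 0.88), Rpl8 (r = 0.85) and Morf4l1 (r = 0.84). The first 4 encode proteins of the cytosolic ribosome, and Morf4l1 encodes MRG15, a chromatin protein that reads methylated histone H3. Rps3a1 differed by -1.68 in the NP and -2.13 in the AF (cKO minus fl/fl), Rpl4 by -0.88 and -1.19, Rps7 by -0.83 and -2.35, Rpl8 by -0.28 and -1.05 and Morf4l1 by -0.85 and -1.27 on the log2 scale. These correlations are descriptions, since all genes of an array share its RNA and its genotype. The genotype difference was left in the correlated values, and Nap1l1 was picked for being lower in cKO. Differences below 0 in the genes most like it were thus favoured by the choice and are no separate result.

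**Figure D2:**
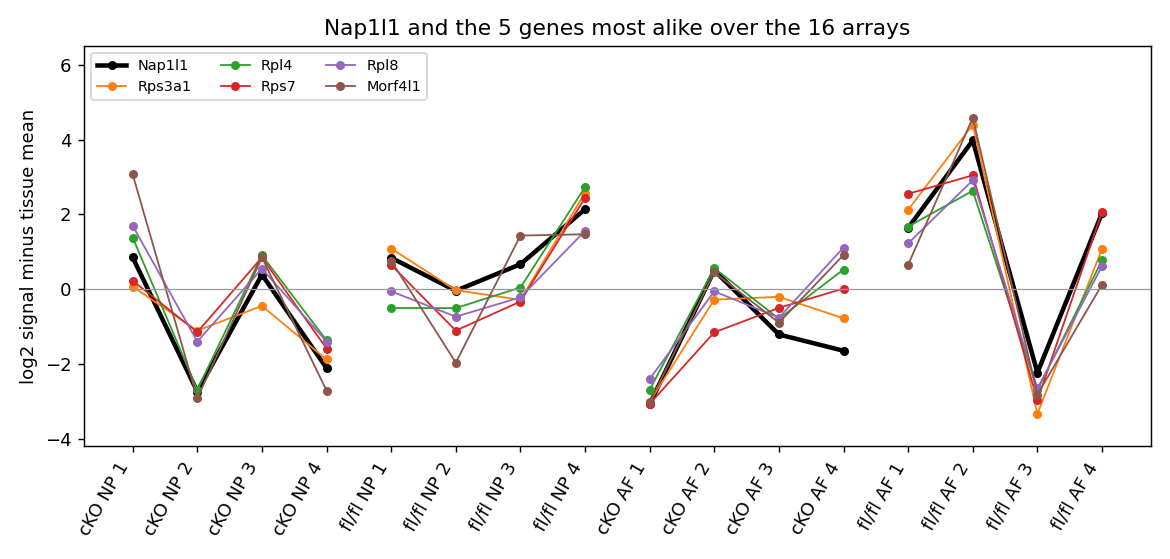
Log2 signal minus the tissue mean (vertical axis) of Nap1l1 (thick black line) and the 5 most alike genes over the 16 arrays (horizontal axis, lines joining the arrays of a group only to guide the eye). The 6 genes dip together on cKO NP arrays 2 and 4, cKO AF array 1 and fl/fl AF array 3, and are high together on fl/fl AF array 2.

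Over the 36 ribosomal protein genes of a list, r with Nap1l1 was above 0 for 36, from 0.04 to 0.89 with a median of 0.48. The median over the 16664 genes tested other than Nap1l1 was 0.00. Those genes were not matched for signal, and only 15.5% to 22.6% of named genes were over background on an array. Whether the likeness is particular to ribosomal protein genes among bright genes was not tested. The mean signal of the list was 9.37, 6.48, 9.02 and 6.21 on cKO NP arrays 1 to 4, and 7.66, 7.22, 7.32 and 8.55 on fl/fl NP arrays 1 to 4. The cKO NP arrays low in Nap1l1 were thus the lowest of the NP in this list, and those not low in Nap1l1 were the highest. In the AF the mean was 6.38, 7.86, 7.52 and 9.19 on cKO arrays 1 to 4, and 8.02, 9.25, 6.97 and 8.93 on fl/fl arrays 1 to 4. Array 4 of cKO AF went the other way, with a high list mean and a Nap1l1 signal of 7.57. Of the 36 genes, 23 to 34 were over background on a cKO NP array and 28 to 32 on a fl/fl NP array, and 24 to 35 on a cKO AF array and 24 to 32 on a fl/fl AF array. The median genotype difference of the list was -0.10 in the NP (all genes -0.02) and -0.58 in the AF (all genes 0.01), with 19 and 27 of the 36 genes below 0. The part of this shared pattern in the Nap1l1 difference was not tested.

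Markers of nucleus pulposus moved with Nap1l1 on several arrays. The mean of the 7 markers was 7.01, 5.18, 6.998 and 5.29 on cKO NP arrays 1 to 4, and 6.20, 5.92, 5.78 and 6.15 on fl/fl NP arrays 1 to 4. The cKO NP arrays low in Nap1l1 were thus the lowest of the NP in these markers too, and cKO NP arrays 1 and 3 the highest. In the AF the mean was 4.75, 5.92, 5.31 and 5.75 on cKO arrays 1 to 4, and 5.74, 6.45, 6.01 and 5.57 on fl/fl arrays 1 to 4. The AF array lowest in these markers, cKO array 1, was lowest in Nap1l1, and the highest, fl/fl array 2, was highest in Nap1l1, but fl/fl array 3 was low in Nap1l1 and not in the markers. Of the 7 markers, 2 to 6 were over background on a cKO NP array and 3 to 6 on a fl/fl NP array, and 1 to 5 on a cKO AF array and 2 to 4 on a fl/fl AF array. In the genotype comparison 5 of the 7 were below 0 in either tissue, with a median of -0.11 in the NP (all genes -0.02) and -0.67 in the AF (all genes 0.01). Of these markers 0 were called, where 0 of all 16665 genes were called. Cdh2, which encodes N-cadherin, was at 5.52 to 6.47 in cKO AF and 6.66 to 7.47 in fl/fl AF, groups that did not overlap (difference -1.16, 95% interval -1.92 to -0.41, adjusted p = 0.984). It was the 1 marker of the 7 with groups apart in the AF, where 2.61% of all genes were apart. In the NP Cdh2 differed by 0.46, and its deposited fl/fl mean was lower there (5.46) than in the AF (7.01). Other markers above 0 were Krt18 in the NP (1.48) and Shh in the AF (0.55). The part of these markers in the Nap1l1 difference was not tested.

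**Figure D3:**
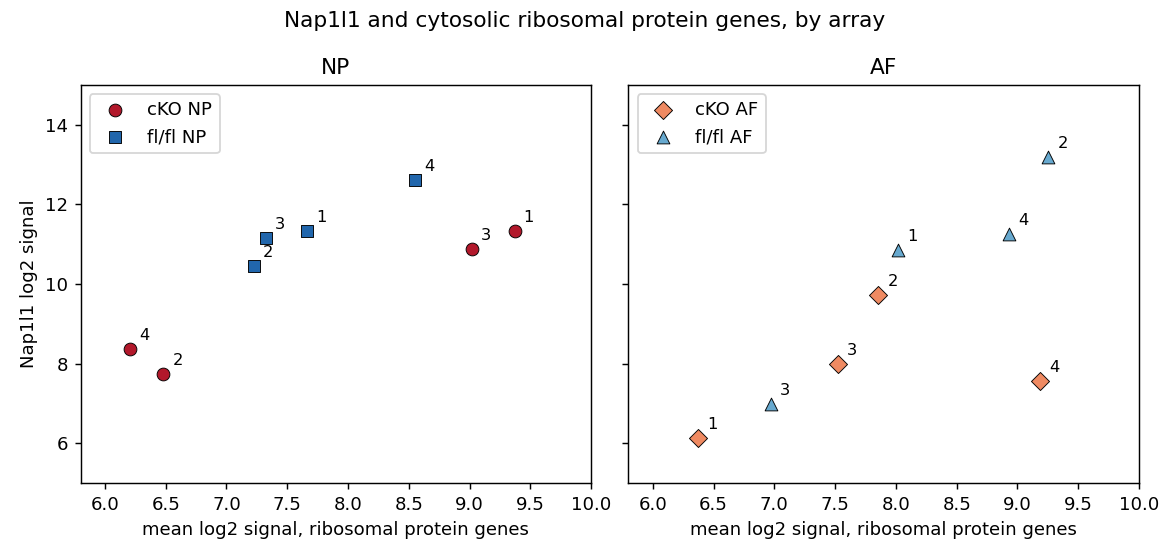
Log2 signal of Nap1l1 (vertical axis) against the mean log2 signal of 36 cytosolic ribosomal protein genes (horizontal axis) on each array, NP on the left and AF on the right, numbered by array. In NP the cKO arrays sit at both ends of the horizontal axis (6.21 and 6.48, 9.02 and 9.37), and in AF the array with the highest list mean among cKO arrays (9.19) has a Nap1l1 signal of 7.57.

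NAP1L4, the closest relative of NAP1L1 among the members and like it a carrier of H2A and H2B, gave a probe set over background on 1 of 16 arrays, cKO NP array 3. Its log2 signal was 5.17, 4.995, 6.10 and 3.82 on cKO NP arrays 1 to 4, against 3.45, 3.84, 3.70 and 3.43 on fl/fl NP arrays 1 to 4. Of the cKO arrays, 3 lay above every fl/fl array, and array 4 lay just inside the fl/fl range. All 4 fl/fl NP values lay below the background median of their arrays, at -0.87 to -0.47 relative to it, so no fold is given. The measured difference was 1.42 (SE 0.40, 95% interval 0.55 to 2.29), with an adjusted p of 0.934 by limma over all genes, and it was 0.81 without cKO NP arrays 1 and 3. These were the cKO NP arrays highest in Nap1l4, so leaving them out had to shrink the difference, and the pair was chosen after the data were seen.

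In the AF, Nap1l4 was at 4.68, 4.43, 4.32 and 5.42 on cKO arrays 1 to 4, against 5.50, 4.55, 4.71 and 4.74 on fl/fl arrays 1 to 4. These ranges overlapped, with a difference of -0.16 (95% interval -0.95 to 0.63, adjusted p = 0.994). The NP difference exceeded the AF difference by 1.58 (95% interval 0.42 to 2.74), and the test of that difference gave an adjusted p of 0.988, on values near or below background.

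SET is an acidic chaperone of the same fold that also inhibits the phosphatase PP2A and shields histone tails from acetylation. In the AF its signal was 8.97, 7.20, 6.59 and 8.99 on cKO arrays 1 to 4, against 5.20, 6.72, 7.14 and 7.76 on fl/fl arrays 1 to 4. Arrays 1 and 4 of cKO lay above every fl/fl array, and the other cKO arrays lay within the fl/fl range. The difference was 1.23 (SE 0.64, 95% interval -0.15 to 2.62, adjusted p = 0.984), and it was 0.19 without cKO arrays 1 and 4. These were the cKO AF arrays highest in Set, so leaving them out had to shrink the difference, and the pair was chosen after the data were seen. In the NP, Set was at 6.36, 5.98, 6.47 and 5.44 on cKO arrays 1 to 4, against 5.52, 5.29, 6.48 and 6.74 on fl/fl arrays 1 to 4, a difference of 0.05 (95% interval -0.75 to 0.86). The NP and AF differences were not separated by the interaction test (-1.18, 95% interval -2.85 to 0.49, adjusted p = 0.988).

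NPM1 is a nucleolar chaperone that also works in ribosome assembly. It had the widest spread of the members tested in the NP. Its NP signal was 9.37, 6.80, 9.52 and 5.03 on cKO arrays 1 to 4, against 6.74, 5.15, 8.96 and 9.97 on fl/fl arrays 1 to 4. The high cKO arrays were the same arrays 1 and 3 on which the ribosomal protein list was high. The groups had nearly the same mean, with a difference of -0.03 (95% interval -2.44 to 2.39, adjusted p = 0.998), an interval that holds changes of over 4-fold either way.

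In the AF, Npm1 was at 7.63, 4.68, 8.43 and 7.55 on cKO arrays 1 to 4, against 8.90, 8.09, 6.74 and 3.67 on fl/fl arrays 1 to 4, a difference of 0.22 (95% interval -1.99 to 2.43, adjusted p = 0.996). Each AF group held 1 array near background, cKO array 2 and fl/fl array 4, and these were not the arrays lowest in Nap1l1. The pooled SD of Npm1 was 2.17 in the NP and 2.00 in the AF, exceeded by 0.294% and 0.678% of genes. The likeness of Npm1 to Nap1l1 was r = 0.67 over the 8 NP arrays and r = -0.14 over the 8 AF arrays.

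ASF1B passes H3 and H4 on during replication. It was over background on 15 of 16 arrays, at 6.02, 6.39, 6.63 and 5.62 on cKO NP arrays 1 to 4, against 6.27, 6.70, 6.73 and 5.75 on fl/fl NP arrays 1 to 4. It was at 7.64, 5.81, 6.16 and 6.75 on cKO AF arrays 1 to 4, against 6.70, 7.16, 6.52 and 5.58 on fl/fl AF arrays 1 to 4. The genotypes overlapped in both tissues, with differences of -0.20 (95% interval -0.88 to 0.48) in the NP and 0.10 (95% interval -0.90 to 1.10) in the AF. Its relative ASF1A, which serves mainly the HIRA path, was over background on 0 of 16 arrays, at 3.28 to 4.29 in cKO NP and 3.31 to 4.94 in fl/fl NP, and at 3.22 to 3.87 in cKO AF and 3.75 to 4.04 in fl/fl AF.

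Of the CAF-1 subunits, Chaf1a was over background on 9 of 16 arrays and Chaf1b on 1. Chaf1a was at 5.11, 5.20, 5.64 and 6.23 on cKO NP arrays 1 to 4, against 5.66, 5.26, 5.81 and 5.80 on fl/fl NP arrays 1 to 4. It was at 4.84, 5.99, 6.24 and 5.44 on cKO AF arrays 1 to 4, against 5.10, 6.20, 5.29 and 6.18 on fl/fl AF arrays 1 to 4. The ranges again overlapped, with differences of -0.08 (95% interval -0.73 to 0.56) in the NP and -0.07 (95% interval -0.96 to 0.82) in the AF. Chaf1b ranged from 3.30 to 4.33 in cKO NP and from 3.36 to 4.55 in fl/fl NP, and from 3.62 to 4.74 in cKO AF and from 3.35 to 6.12 in fl/fl AF.

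HIRA places the variant H3.3 in chromatin outside replication. Hira was over background on all 16 arrays, at 5.40, 5.81, 5.69 and 5.52 on cKO NP arrays 1 to 4, against 5.49, 6.59, 6.72 and 5.32 on fl/fl NP arrays 1 to 4. Arrays 2 and 3 of fl/fl NP lay above every cKO array, and the other fl/fl arrays lay inside or below the cKO range. The difference was -0.42 (95% interval -1.17 to 0.32, adjusted p = 0.934). In the AF it was at 7.91, 6.56, 6.06 and 6.72 on cKO arrays 1 to 4, against 6.04, 6.84, 7.26 and 6.93 on fl/fl arrays 1 to 4, a difference of 0.05 (95% interval -0.90 to 0.99). NASP, which holds a reserve of soluble H3 and H4, was over background on 0 of 16 arrays, at 3.29 to 4.52 in cKO NP and 3.48 to 3.80 in fl/fl NP, and at 3.39 to 4.63 in cKO AF and 3.91 to 4.90 in fl/fl AF.

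**Figure D4:**
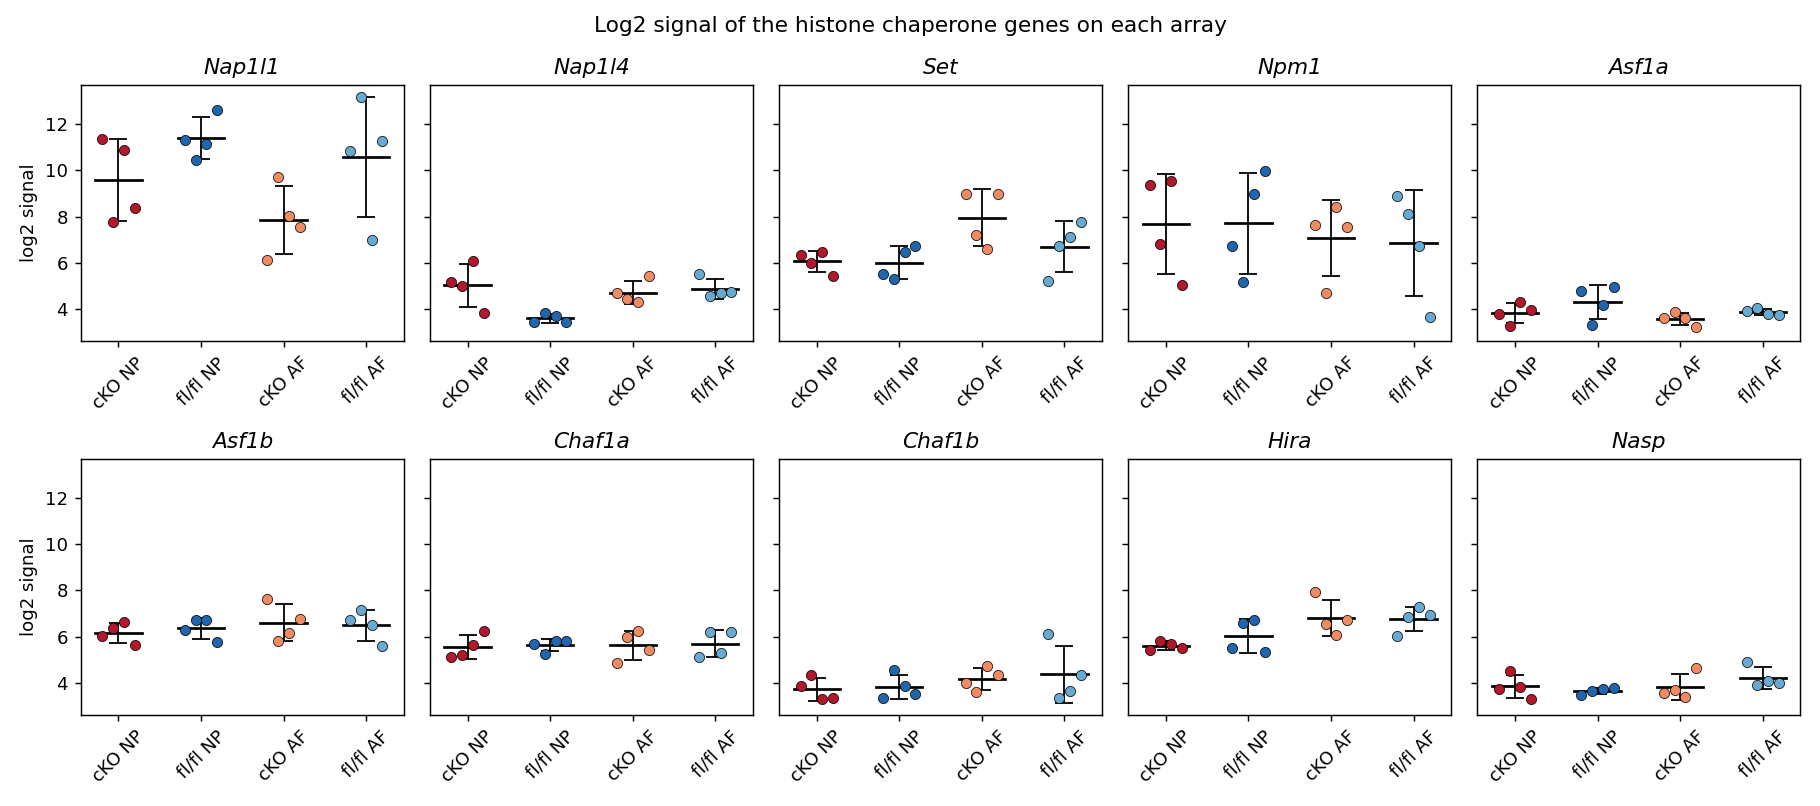
Log2 signal (vertical axis) of the 10 histone chaperone genes on the 4 arrays of each group (horizontal axis), with bars for the mean and whiskers for ± 1 SD. In every panel the cKO and fl/fl points of a tissue overlap, Nap1l1 and Npm1 are spread most widely in NP, and Asf1a, Chaf1b and Nasp stay near background on nearly all arrays.

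Across the members, 0 were called between genotypes in either tissue at an adjusted p under 0.05, where 0 of the 16665 genes (0%) were called. At an unadjusted p under 0.05, limma counted 823 genes in the NP (4.94%) and 667 in the AF (4%). Of the 6 tested members other than Nap1l1, 1 (Nap1l4, higher in cKO) passed that mark in the NP, where 2.48% of genes passed it upward, and 0 passed it in the AF. Of the 10 members, 0 had genotypes that did not overlap, against 2.81% of tested genes in the NP and 2.61% in the AF. Among the 6, 2 differences were above 0 and 4 below in the NP (median -0.05, all genes -0.02), where 52.8% of all genes were below 0, and 4 were above 0 and 2 below in the AF (median 0.07, all genes 0.01), where 49.3% of all genes were below 0. For the difference between the tissues, 0 genes (0%) were called, with 687 (4.12%) at an unadjusted p under 0.05.

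**Figure D5:**
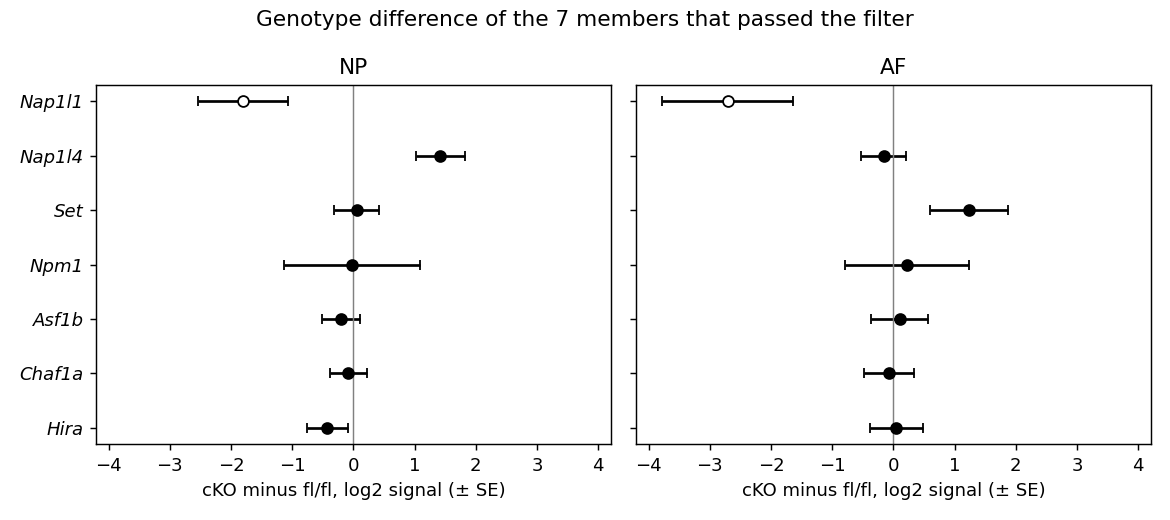
Difference in log2 signal, cKO minus fl/fl (horizontal axis, whiskers ± 1 SE), for the 7 members that passed the filter on low signal, NP on the left and AF on the right. Nap1l1 (open circles, given as a description) lies at -1.80 and -2.71, Nap1l4 at 1.42 in NP and Set at 1.23 in AF, and the other members lie within 0.43 of 0.

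Levels of the members in the core and the ring of the disc were compared after each array was centred on its median, since the median of the deposited signals lay between 4.41 and 4.49 for NP and between 4.933 and 4.998 for AF. Nap1l1 stood 5.05 above the array median in cKO NP and 2.79 above it in cKO AF, a difference of 2.26 (95% interval 0.09 to 4.44, adjusted p = 0.249). In fl/fl mice it stood 6.83 above the median in NP and 5.50 in AF, a difference of 1.33 (95% interval -0.84 to 3.51, adjusted p = 0.567). The order of its centred levels was thus fl/fl NP, fl/fl AF, cKO NP and cKO AF. Nap1l1 was picked for being lower in cKO of both tissues, so fl/fl above cKO within a tissue was given by that choice. In the deposited values, which were not centred, each neighbour in that order overlapped the next.

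Set went the other way between the tissues of cKO mice, at 1.53 above the array median in NP and 2.87 in AF, a difference of -1.34 (95% interval -2.53 to -0.15, adjusted p = 0.215), and the difference in fl/fl mice was -0.18 (95% interval -1.37 to 1.01). Nap1l4 differed by 0.85 between NP and AF in cKO mice (95% interval 0.01 to 1.68, adjusted p = 0.263) and by -0.75 in fl/fl mice (95% interval -1.59 to 0.08, adjusted p = 0.362). The adjusted p of the remaining members lay between 0.395 (Hira, cKO) and 0.912 (Asf1b, cKO). Of the 7 members tested, 0 were called in either genotype, where limma called 227 genes (1.36%) in cKO mice and 138 (0.828%) in fl/fl mice. These counts were unstable, at 54 to 228 in cKO mice (54 without cKO NP array 1, 55 without cKO NP array 3) and 19 to 102 in fl/fl mice (19 without fl/fl NP array 4) with single arrays left out, and the labels do not say which NP and AF arrays share an animal, so these fits and the interaction took the 16 arrays as independent. Without centring, Set (-1.88, adjusted p = 0.0297) and Hira (-1.21, adjusted p = 0.0444) in cKO mice and Nap1l4 (-1.27, adjusted p = 0.0389) in fl/fl mice were called lower in NP, on a scale where 3025 and 2330 genes were called.

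A list of 35 further histone chaperones and their partners had 32 among the named genes and 28 tested. It held 0 genes called between genotypes, where 0 of all 16665 genes were called. In the NP 14 of the 28 differences were above 0 and 14 below (median -0.05), and in the AF 17 were above 0 and 11 below (median 0.15, all genes 0.01). Anp32b, an acidic chaperone of H3 and H4, was at 11.51, 11.03, 11.53 and 9.78 on cKO NP arrays 1 to 4, against 12.66, 12.92, 12.15 and 11.73 on fl/fl NP arrays 1 to 4. Every cKO array lay below every fl/fl array, and the probe set was over background on all 8. The difference was -1.41 (SE 0.41, 95% interval -2.30 to -0.52, adjusted p = 0.934).

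HJURP is the chaperone of CENP-A, the H3 variant of centromeres. In the AF Hjurp was at 7.28, 6.48, 5.40 and 5.99 on cKO arrays 1 to 4, against 5.23, 4.86, 5.12 and 3.85 on fl/fl arrays 1 to 4. The groups did not overlap, with a difference of 1.52 (95% interval 0.54 to 2.51, adjusted p = 0.984), and 3 of the 8 arrays were over background. In the NP it was at 5.01 to 5.35 in cKO and 4.62 to 4.89 in fl/fl, which did not overlap either but were over background on only 1 of 8 arrays. Cenpa itself was at 5.40, 5.74, 5.42 and 4.92 on cKO NP arrays 1 to 4, against 5.88, 5.66, 6.23 and 6.26 on fl/fl NP arrays 1 to 4, and differed by -0.64 in the NP (95% interval -1.22 to -0.06, adjusted p = 0.934) and by -0.36 in the AF (95% interval -1.06 to 0.35).

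Ipo4, an importin that brings H3 and H4 with ASF1 into the nucleus, was at 6.38, 4.69, 6.21 and 4.12 on cKO NP arrays 1 to 4, against 3.92, 4.19, 3.96 and 4.04 on fl/fl NP arrays 1 to 4. Its high arrays, 1 and 3, were again those with the highest means of muscle markers and ribosomal protein genes in the NP. Its difference was 1.32 (95% interval 0.34 to 2.31, adjusted p = 0.934), and its probe set was over background on 2 of 8 arrays. All its fl/fl NP values lay below the lowest background median of the NP arrays (4.28). Rbbp4, the small subunit of CAF-1, averaged 6.68 in cKO AF and 5.45 in fl/fl AF, with overlapping groups. Nucleolin (Ncl), a nucleolar chaperone over background on all 8 AF arrays, was at 7.53 to 9.45 in cKO AF and 8.97 to 9.70 in fl/fl AF. Of the 28 genes tested, groups did not overlap for 2 in the NP (Hjurp and Anp32b) and 2 in the AF (Hjurp and Atrx), where 2.81% and 2.61% of all genes did not overlap. Atrx was at 4.01 to 4.53 in cKO AF and 4.78 to 5.54 in fl/fl AF and was over background on 0 of 8 arrays. It fell outside the rule for naming genes and was chosen after its values were seen.

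The histones that these chaperones carry were measured through 8 tested genes of replacement variants, since replication-dependent histone genes were not in the list. In the NP 6 of the 8 differences were below 0 (median -0.26, all genes -0.02), and in the AF 4 were below 0 (median 0.03). H3f3a, an H3.3 gene whose product is the cargo of HIRA, was at 4.84, 4.28, 4.94 and 4.49 on cKO NP arrays 1 to 4, against 5.46, 5.17, 5.20 and 5.19 on fl/fl NP arrays 1 to 4. These groups did not overlap, and the difference was -0.62 (95% interval -1.15 to -0.08, adjusted p = 0.934), with 1 of the 8 arrays over background. H3f3a was the 1 gene of the 8 with groups apart in the NP, where 2.81% of all genes were apart. H3f3b, the other H3.3 gene, was at 4.80, 4.89, 5.28 and 6.24 on cKO AF arrays 1 to 4 (mean 5.30). It was at 4.09 to 4.83 in fl/fl AF (mean 4.60). The groups overlapped, and 1 of the 8 AF arrays was over background.

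Among genes of DNA replication and of H3 acetylation, the processes in which these chaperones take part, 0 were called, where 0 of all 16665 genes were called. Of 16 tested replication genes, 8 were above 0 and 8 below in the NP (median 0.00), and 10 were above 0 and 6 below in the AF (median 0.14). The flap endonuclease gene Fen1 averaged 5.23 in cKO NP and 4.47 in fl/fl NP, a difference of 0.76 (95% interval 0.07 to 1.46, adjusted p = 0.934), and was over background on 2 of 8 arrays, with overlapping groups. Mcm3, of the replicative helicase, was at 3.81 to 4.18 in cKO NP and 4.21 to 5.17 in fl/fl NP, groups that did not overlap but were over background on 0 of 8 arrays (difference -0.51, 95% interval -1.11 to 0.08). Of 10 tested genes for enzymes that add acetyl groups to H3 or remove them, 4 were above 0 and 6 below in the NP (median -0.03), and 2 were above 0 and 8 below in the AF (median -0.13). The acetyltransferase gene Kat2a averaged 4.69 in cKO NP and 3.81 in fl/fl NP, a difference of 0.87 (95% interval 0.12 to 1.62), with 1 of 8 arrays over background, and its adjusted p was 0.934. It averaged 4.83 in cKO AF and 4.34 in fl/fl AF. The deacetylase gene Hdac1 was at 4.58 to 5.23 in cKO NP and 4.39 to 4.54 in fl/fl NP, which did not overlap but were over background on 0 of 8 arrays (difference 0.37, 95% interval -0.15 to 0.88). Mcm3 was the 1 gene of the 16 tested, and Hdac1 the 1 of the 10, with groups apart in the NP. Among all genes 2.81% were apart there.

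Npm1, Set, Nap1l1 and the ribosomal protein genes have many processed copies elsewhere in the mouse genome, so their probe sets could take up signal from near-identical sequences. The number of arrays limits the precision of every value here.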

How the data were processed

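NP and AF were measured on Clariom S arrays, 4 per tissue and genotype and 16 in all, grouped by their labels. Which NP and AF arrays came from the same animal is not stated. The authors normalised the arrays by sst-rma in the Expression Console, and the deposited values are log2 signals. Transcriptome Analysis Console is named in the processing notes of the submitters. The sources do not say whether NP and AF were normalised together. Of 28846 probe sets, 19572 had 1 gene symbol in the platform annotation. Genes above the 40th percentile of an array on at least 4 arrays were kept (16665), with the brightest probe set per gene. The study's detection call and SAM were not used here.

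Genotypes were compared within a tissue with limma 3.58.1 in R 4.3.3, tissues and the interaction in 1 fit over all arrays (tissues after centring each array), with Benjamini-Hochberg adjustment over all genes. Genes were also counted at the study's thresholds (unadjusted p of at most 0.05, fold of at least 1.75). The fits were tested on simulated data. Figures were drawn with matplotlib 3.10.9.

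The members and lists were chosen with earlier results of these data known. Named were the members, Sirt6, up to 4 genes per list and tissue with the lowest unadjusted p, and the 5 genes most like Nap1l1. Alternatives were other filters, normalizations, array weights, variance models, 1 fit of both tissues, a replicate block, and arrays left out. Genes over background alone and pairs of arrays left out together were added after the data were seen.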

Additional observations from a re-analysis of the deposited data

Results flagged for a closer look

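Of 40 sets of 4 arrays (10 members in 4 groups), 1 held an array far from the others, and chance gives about 1 in 20. Nasp was at 4.90 on fl/fl AF array 1, against 3.91 to 4.07 on the other fl/fl AF arrays. Its probe set was over background on none of these.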

How the results depend on the processing

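Among genes past the study's thresholds, 398 were counted in the NP and 590 in the AF. With genes over background alone the counts were 83 and 92. Without cKO NP arrays 1 and 3 the NP count was 616, and 1 gene was called. Leaving out single arrays gave 342 to 710 in the NP (653 without cKO array 2, 710 without cKO array 4) and 591 to 805 in the AF, with 0 called. Genes called between NP and AF in cKO mice (227) numbered 3025 without centring, 382 with array weights, 149 with genes over background alone, 0 without cKO NP arrays 1 and 3, 71 without cKO AF arrays 1 and 4 and 54 to 228 with single arrays left out. In fl/fl mice (138) they numbered 2330 without centring and 19 to 102 with single arrays left out. The cause was not tested.

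Samples of the same number did not deviate together (r from -0.14 to 0.06, against -0.20 to 0.19 for different numbers). The check gave no sign that the numbers pair the arrays, but it cannot exclude a shared animal. With the number as a block, genes past the study's thresholds were 461 in the NP and 673 in the AF with 0 called in either and 0 for the interaction, and genes called between tissues were 2 in cKO and 0 in fl/fl mice.

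Nap1l1 was lower in cKO in both tissues under every alternative run. It was picked for that direction on these same arrays, so the kept sign is a description and no support. Of 35 differences over 7 members and 5 contrasts, 20 turned sign under some alternative. With array weights, Npm1 was at 0.16 in the NP, Asf1b at -0.10, Chaf1a at 0.023 and Hira at -0.19 in the AF, and Npm1 at 0.025 for the interaction. With quantile normalization, Asf1b was at -0.047 and Hira at -0.11 in the AF. With centring, Chaf1a was at 0.0099 for the interaction. Without cKO NP arrays 1 and 3, Set was at -0.30 and Chaf1a at 0.089 in the NP, Nap1l1 at -0.61 and Chaf1a at 0.16 for the interaction, and Npm1 at -0.65 and Asf1b at -0.079 for NP minus AF in cKO. Without cKO AF arrays 1 and 4, Npm1 was at -0.30, Asf1b at -0.51, Chaf1a at 0.42 and Hira at -0.46 in the AF, and Nap1l1 at -0.10, Npm1 at 0.27, Asf1b at 0.31 and Hira at 0.031 for the interaction. Without centring, NP minus AF was -0.43 for Asf1b and -0.076 for Chaf1a in cKO, and -0.13 and -0.063 in fl/fl.

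With single arrays left out, the NP difference ranged from -0.18 to 0.30 for Set, -0.88 to 0.86 for Npm1 and -0.31 to 0.064 for Chaf1a. The AF difference ranged from -0.40 to 0.047 for Nap1l4, -0.84 to 1.02 for Npm1, -0.25 to 0.36 for Asf1b, -0.27 to 0.19 for Chaf1a and -0.32 to 0.30 for Hira. The interaction ranged from -1.10 to 0.81 for Npm1, -0.56 to 0.051 for Asf1b and -0.27 to 0.19 for Chaf1a. NP minus AF ranged from -0.16 to 0.50 for Asf1b in cKO, and from -0.67 to 0.16 for Set and -0.45 to 0.013 for Hira in fl/fl. Signals near background limit Nap1l4, Asf1a, Chaf1b and Nasp.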
